A study of Mus musculus with 9 samples.

Results

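V(D)J recombination and the end joining that completes it were followed through 10 genes, taken as the rows of the deposited count table whose symbol is Rag1, Rag2, Dntt, Lig4, Xrcc4, Dclre1c, Prkdc, Xrcc5, Xrcc6 or Nhej1. All 10 were found among the 46078 genes of the table, and 3 of them (Rag1, Rag2 and Dntt) are lymphocyte-specific while 7 belong to the general end joining machinery. Transcript 3′ ends were sequenced in mouse RNA of strain C57BL/6J. The lymphoma group held 6 libraries of T cell lymphoma cells induced by MYCN, a transcription factor of the MYC family, and taken from the thymus (lymphomas 34, 53, 56, 70, 72 and 86). The CD4 group held 3 libraries of CD4+ T cells from the spleen (CD4 1, 2 and 3), which served as controls. No treatment, age or sex is given in the labels, nor the promoter that drives MYCN. Whether each lymphoma is a separate primary tumour and each CD4 library a separate animal is not stated. The p-values therefore set group differences against the spread between these libraries, which may be technical in part. Tissue of origin and tumour state change together between the groups and cannot be told apart.

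V(D)J recombination assembles the variable exons of antigen receptor genes in immature lymphocytes. RAG1 and RAG2 together cut the DNA beside V, D and J segments and leave hairpin-sealed coding ends. Ku70 and Ku80 bind the broken ends, DNA-PKcs and Artemis open the hairpins, TdT adds nucleotides without a template, and DNA ligase IV with XRCC4 and XLF seals the joint. In the thymus the RAG genes and Dntt are on while receptor genes are being assembled and are shut off as T cells mature, whereas the end joining proteins act on double-strand breaks in every cell type.

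Lymphoma libraries held 11170704 to 15769679 reads counted in genes and CD4 libraries 8099960 to 10808828. Levels are in CPM (counts scaled to a TMM-adjusted library of 1000000), and fold changes are lymphoma over CD4 from edgeR's quasi-likelihood test, adjusted over 15401 tested genes with 0.05 as threshold. Of these genes, 46.6% passed, 24.7% as higher and 21.9% as lower in lymphoma. The balance turned with upper quartile scaling (3414 higher, 3707 lower) and with limma voom (3427 and 3775), against 3798 and 3376 here. Where values of all libraries are listed, they run in the order lymphoma 34, 53, 56, 70, 72, 86 and then CD4 1, 2, 3. Lymphoma 53 stood apart, with the fewest counts of its group, and 8137 genes passed without it against 7174 with it. The T cell label held in both groups at Cd3e, a subunit of the CD3 complex (149.7 to 217 CPM in lymphoma and 137.5 to 191.6 in CD4). The CD4 libraries also held transcripts of other cell types: all 14 B cell markers were above 0 in them, summing to 2747 to 3365 CPM against 259 to 427 in lymphoma, and Cd8a, the CD8 alpha chain, stood at 25.6 to 31.8 CPM.

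Transcripts of the recombinase itself were at or under the detection floor in every library, while Dntt was low in lymphoma and clearly counted in CD4. The regions just upstream of the 3 lymphocyte-specific genes are shown first, because these are the genes by which the pathway is restricted to lymphocytes. Each run holds the 250 bases before the start site on the gene's strand, from RefSeq on GRCm38.p6, at chr2:101649533-101649782 on the minus strand for Rag1, chr2:101624462-101624711 on the plus strand for Rag2 and chr19:41029025-41029274 on the plus strand for Dntt. Capitals mark matches on either strand to any of 5 short motifs.
Rag1: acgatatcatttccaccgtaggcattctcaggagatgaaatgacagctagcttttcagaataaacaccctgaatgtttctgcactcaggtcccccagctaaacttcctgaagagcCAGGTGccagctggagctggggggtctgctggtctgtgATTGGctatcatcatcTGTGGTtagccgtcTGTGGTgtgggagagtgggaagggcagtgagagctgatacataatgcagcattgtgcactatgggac
Rag2: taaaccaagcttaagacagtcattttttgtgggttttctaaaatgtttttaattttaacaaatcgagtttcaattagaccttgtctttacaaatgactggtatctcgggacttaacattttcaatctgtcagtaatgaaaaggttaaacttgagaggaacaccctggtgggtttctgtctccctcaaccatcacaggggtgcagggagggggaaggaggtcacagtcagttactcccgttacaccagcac
Dntt: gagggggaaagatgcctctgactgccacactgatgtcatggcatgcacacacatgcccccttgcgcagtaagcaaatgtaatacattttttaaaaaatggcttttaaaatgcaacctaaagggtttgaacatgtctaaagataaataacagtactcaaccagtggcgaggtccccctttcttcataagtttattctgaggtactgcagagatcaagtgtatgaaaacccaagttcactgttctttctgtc
The E protein box CAGGTG stood 135 bases before the Rag1 start and occurs in 17.2% of 32851 RefSeq mouse promoters of this length. The RUNX motif TGTGGT stood at 81 and again at 67 bases before the Rag1 start, against 14.05% of promoters with at least 1 match. The NF-Y box CCAAT lay on the opposite strand of the Rag1 promoter, beginning 97 bases before the start, and occurs in 33.8% of promoters. Neither the Rag2 nor the Dntt window held any of the 5 motifs, which besides these 3 were the MYC-MAX E-box CACGTG and the SP box GGGCGG. The Rag1 window also lies directly before B230118H07Rik, a gene on the same strand whose annotated start is chr2:101649532. The matches in it are therefore not particular to Rag1. No measurement here bears on binding at these letters.

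Rag1 (chr2:101638282-101649501, minus strand, GRCm38), the subunit that holds the catalytic site of the recombinase, had 2 counts in lymphoma 53, 2 in lymphoma 70 and 0 in the other 4 lymphomas. It had 0 counts in all 3 CD4 libraries. Rag2 (chr2:101624718-101632529, plus strand), the chromatin-reading partner of RAG1, had 0 counts in all 6 lymphomas, 1 count in CD4 2 and 0 in CD4 1 and CD4 3. The limit that a count of 0 allows is 3 counts, or 0.190 to 0.269 counts per 1000000 gene counts in a lymphoma library and 0.278 to 0.370 in a CD4 library. Both groups lay at or under that floor for both genes, so no fold is given and neither gene was tested. This limit covers counting error only, because no molecular identifiers separate molecules from copies. The RAG genes lie tail to tail inside the gene B230118H07Rik, which shares 80 exonic bases with Rag1 on the same strand and 208 with Rag2 on the opposite strand, but none with the last 500 exonic bases of either gene.

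Dntt (chr19:41029275-41059525, plus strand), which encodes TdT, had counts of 10, 13, 0, 3, 7 and 11 in the lymphomas and of 105, 50 and 136 in the CD4 libraries. On the CPM scale this was 0.545 ± 0.429 (SD, n = 6) in lymphoma and 9.50 ± 3.27 (SD, n = 3) in CD4. Each of the 6 lymphomas was below each CD4 library, and lymphoma 53, at 1.19 CPM, was the highest of them. Dntt fell by 4.12 on the log2 scale (SE 0.75, adjusted p = 0.000844), that is, it was 17.4-fold lower in lymphoma. It passed the filter on low counts only through the CD4 libraries, where it was high, so a difference was built into its entry to the test. In 17 alternatives the fitted change ran from -4.69 to -3.85 and every adjusted p was under the threshold. In bulk RNA, fewer cells that carry Dntt and less Dntt RNA per cell cannot be told apart.

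**Figure D1:**
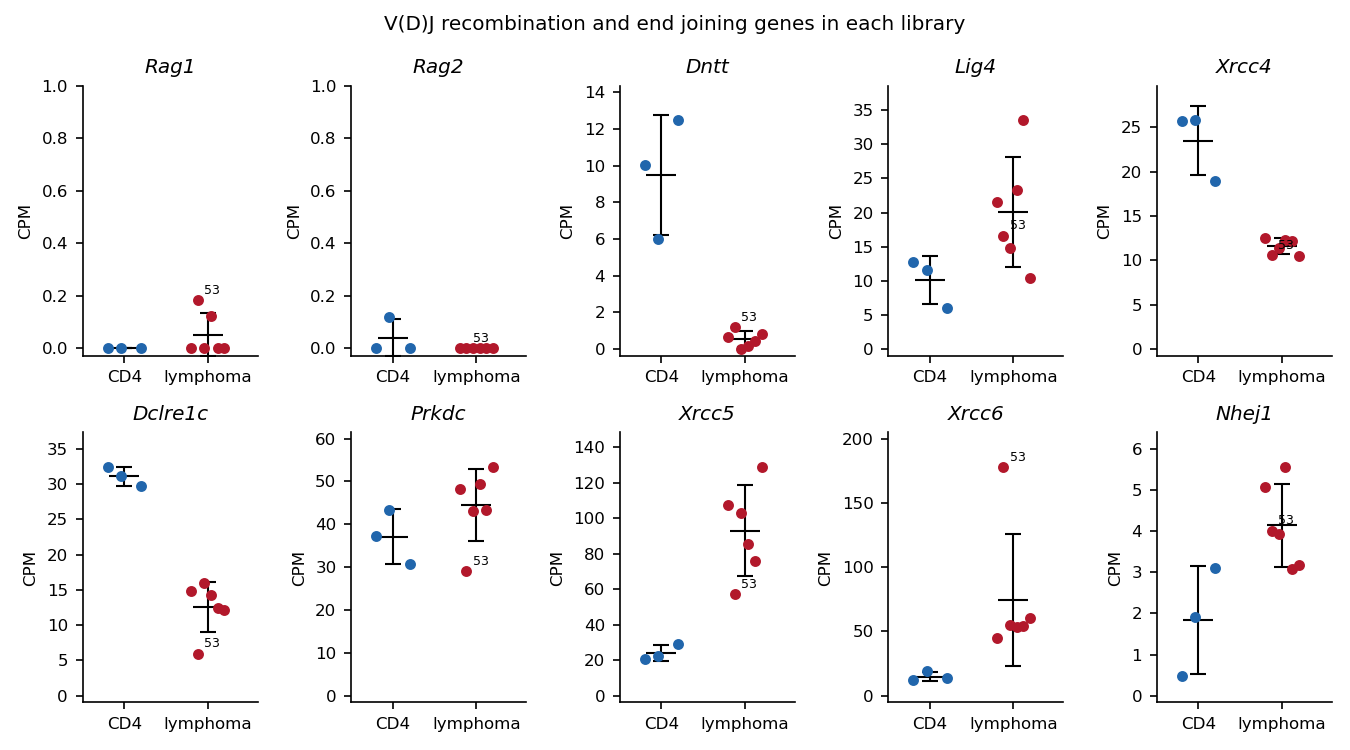
Level of each of the 10 genes in CPM (linear axis) in the 3 CD4 libraries (blue) and 6 lymphomas (red), with each group's mean and SD in black and lymphoma 53 marked. Rag1 and Rag2 lie at or near 0 in both groups, Dntt, Xrcc4 and Dclre1c are lower in all 6 lymphomas, and Xrcc5 and Xrcc6 are higher in all 6.

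Marker genes of several cell types moved with Dntt between the groups, and their part in its difference was not tested. All 14 B cell markers were lower in lymphoma, beside 21.9% of all tested genes. Of 9 plasmacytoid dendritic cell markers 8 were lower, and their sum was 97.1 to 391 CPM in lymphoma against 977 to 1005 in CD4. Siglech, a lectin of plasmacytoid dendritic cells, was at most 0.367 CPM in lymphoma and 60.7 to 69.1 in CD4. A marker this low in lymphoma entered the test only through the CD4 libraries, so a difference was built into its entry. Counts of lower markers in these lists are therefore a description and are not weighed against the share of all tested genes. Lymphoma 53 had the highest plasmacytoid dendritic sum of the lymphomas and also the highest immature thymocyte sum (643 CPM against 383 to 535). Its B cell sum of 306 CPM lay within those of the others. It was also the highest in Dntt, but on 13 counts against 11 in lymphoma 86 and 10 in lymphoma 34. So few counts cannot rank the lymphomas, and no relation to the sums is read from them. Immature thymocyte markers other than the RAG genes and Dntt (14 genes) summed to 383 to 643 CPM in lymphoma and 929 to 1004 in CD4, a sum that includes Cd4 and Cd3e of the mature T cell list. In that list Cd24a, a surface protein of immature thymocytes, went the other way and rose, at 146 to 237 CPM in lymphoma and 27.3 to 61.8 in CD4 (log2 change 2.23, SE 0.27, adjusted p = 4.48e-05). Ptcra, the pre-T cell receptor alpha chain and a defining marker of that stage, was at 0 in all CD4 libraries and at most 0.0728 CPM in any lymphoma. The 12 mature T cell markers summed to 1016 to 1233 CPM in lymphoma and 3365 to 4682 in CD4, so the sums of all these lists were lower in lymphoma, as Dntt was. Myeloid sums were 69.0 to 787 CPM in 5 lymphomas and 2172 in lymphoma 56, against 796 to 1015 in CD4, and 4 of 10 myeloid markers fell and 0 rose. Erythroid sums overlapped (20.8 to 647 against 77.0 to 247 CPM). Stromal sums were lower (97.4 to 180 against 216 to 234 CPM), although of 6 tested stromal markers Dcn and Epcam rose and Pecam1 alone fell, with a median log2 change of 1.35.

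**Figure D2:**
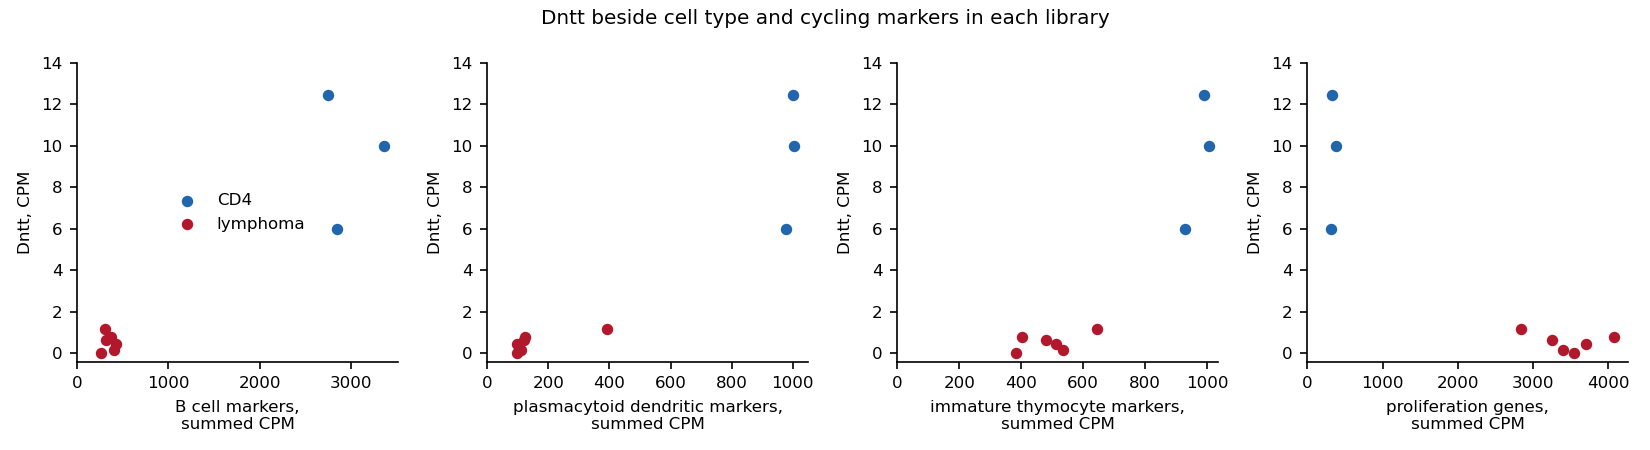
Dntt in CPM (vertical axes) against the summed CPM of B cell markers, plasmacytoid dendritic cell markers, immature thymocyte markers and proliferation genes (horizontal axes), with 1 point per library, CD4 in blue and lymphoma in red. Dntt is at most 1.19 CPM in the 6 lymphomas and at least 6.00 in the CD4 libraries, which also hold the higher marker sums in the first 3 panels and the lower sum of proliferation genes in the last.

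The general end joining genes did not move as a block. All 7 passed the filter on low counts. The Ku genes Xrcc5 and Xrcc6 rose in lymphoma, Xrcc4 and Dclre1c fell, and Lig4, Prkdc and Nhej1 did not pass the test. Over all 8 tested genes of the pathway, 2 were higher and 3 lower, beside 24.7% higher and 21.9% lower among all tested genes. Dntt is among the 3 lower, and its difference was built into its entry to the test. The 7 end joining genes alone had 2 higher and 2 lower. A count of 2 in 8 is close to that background. The median log2 fold change was 0.99 over the 7 end joining genes and 0.04 over all tested genes. No overlap between the groups in CPM was seen at 5 of the 8 genes, Dntt among them, against 44.9% of all tested genes. Of the 7 end joining genes, 2 lay wholly above and 2 wholly below the CD4 libraries in lymphoma.

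Ku is the ring-shaped heterodimer that first grips a broken end. Xrcc5 (chr1:72307421-72394952, plus strand), which encodes Ku80, was at 107, 57.1, 103, 85.5, 75.9 and 129 CPM in the lymphomas, and at 20.7, 22.3 and 29.1 CPM in the CD4 libraries. All 6 lymphomas exceeded all 3 CD4 libraries, and the lowest of them, lymphoma 53, was 57.1 CPM. The change was 1.95 (log2, SE 0.27, adjusted p = 0.000111), or 3.86-fold, and it ran from 1.85 to 2.12 over 18 alternatives. Among the 9 genes with a promoter entry, Xrcc5 alone held the MYC-MAX E-box in the window searched, and for that reason its promoter is printed, at chr1:72307171-72307420 on the plus strand of GRCm38.p6, from RefSeq, with motif matches in capitals.
Xrcc5: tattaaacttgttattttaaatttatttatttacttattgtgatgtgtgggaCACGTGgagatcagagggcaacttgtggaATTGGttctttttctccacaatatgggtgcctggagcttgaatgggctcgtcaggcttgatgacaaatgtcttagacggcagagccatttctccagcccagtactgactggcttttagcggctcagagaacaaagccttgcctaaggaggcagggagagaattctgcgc
The motif CACGTG began 198 bases before the start and occurs in 6.02% of all promoters of this length, while among the 10 promoters found for 9 of the 10 genes it was in 1. The other match, CCAAT on the opposite strand, began 169 bases before the start. The SP box GGGCGG was found in 5 of the 10 promoters and in 32.7% of all promoters.

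Xrcc6 (chr15:81987835-82040085, plus strand), which encodes Ku70, was at 45.1, 179, 55.3, 53.5, 54.3 and 60.5 CPM in the lymphomas, and at 11.8, 19.1 and 13.6 CPM in the CD4 libraries. Again no lymphoma overlapped a CD4 library, and lymphoma 53 lay far above the other 5. The change was 2.33 (log2, SE 0.48, adjusted p = 0.00214), or 5.03-fold. Without lymphoma 53 it was 1.86, and over 18 alternatives the adjusted p ran from 6.56e-07 to 0.0135. The spread within lymphoma also rested on that library, at 74.5 ± 51.2 CPM (SD, n = 6) with it and 53.7 ± 5.56 (SD, n = 5) without it.

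The Ku transcripts kept a similar ratio in most libraries. Counts of Xrcc6 divided by counts of Xrcc5 gave 0.420, 3.13, 0.537, 0.625, 0.715 and 0.469 in the lymphomas and 0.571, 0.855 and 0.467 in the CD4 libraries. The 5 lymphomas other than 53 lay within 0.420 to 0.715 and overlapped the CD4 libraries. Lymphoma 53 had the lowest Xrcc5 and the highest Xrcc6 of its group. The ratio is one of read counts and is not a ratio of proteins.

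**Figure D3:**
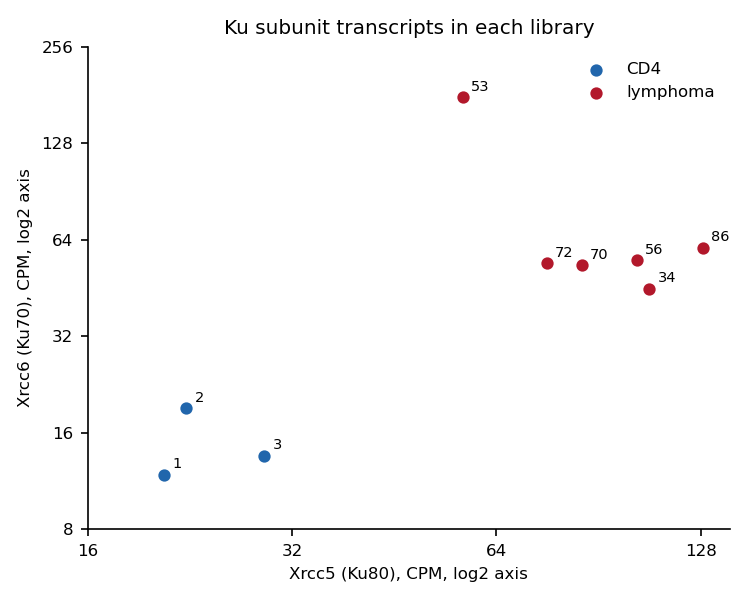
Xrcc6 against Xrcc5 in CPM (log2 axes), with 1 numbered point per library, CD4 in blue and lymphoma in red. The lymphomas lie above and to the right of the CD4 libraries, and lymphoma 53 has 3.13 counts of Xrcc6 per count of Xrcc5 where the other lymphomas have 0.420 to 0.715.

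The high Xrcc6 of lymphoma 53 was examined by chromosome, a step chosen after its value was seen. Over 10692 genes with a mean of at least 50 counts in the lymphomas, the difference in log2(CPM + 0.5) between lymphoma 53 and the mean of the other 5 lymphomas had a median of 0.67 on chromosome 15, which carries Xrcc6 (397 genes, 77.3% above 0). The medians of the other 19 chromosomes ran from -0.25 to 0.08, and the chromosome 15 medians of the other lymphomas, each against the rest, from -0.24 to -0.09. For those lymphomas the rest includes lymphoma 53, which lowers their chromosome 15 medians, so they are not a separate baseline. Off chromosome 15, 47.2% of genes were above 0. Xrcc6 itself differed by 1.72. Of all 10692 genes 219 differed by more, 29 of them on chromosome 15. Among the 20 other genes within 500 kb of Xrcc6, 15 were above 0 and the median was 0.75. Both are near the values of the whole chromosome (77.3% and 0.67), so they are not particular to the surroundings of Xrcc6. Desi1, a neighbour on the opposite strand that shares 344 exonic bases with Xrcc6, was at 318 CPM in lymphoma 53 and 55.1 to 64.5 in the other lymphomas. The last 500 exonic bases of Xrcc6 overlap no other gene, and the strand setting of the counting is not given in the sources used here. At the other end joining genes the same log2 difference was -0.81 at Xrcc5, -1.16 at Dclre1c and -0.70 at Prkdc. It was smaller at Lig4 (-0.31), Xrcc4 (-0.15) and Nhej1 (-0.05). Dntt was highest in lymphoma 53, on 13 counts, as given above.

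**Figure D4:**
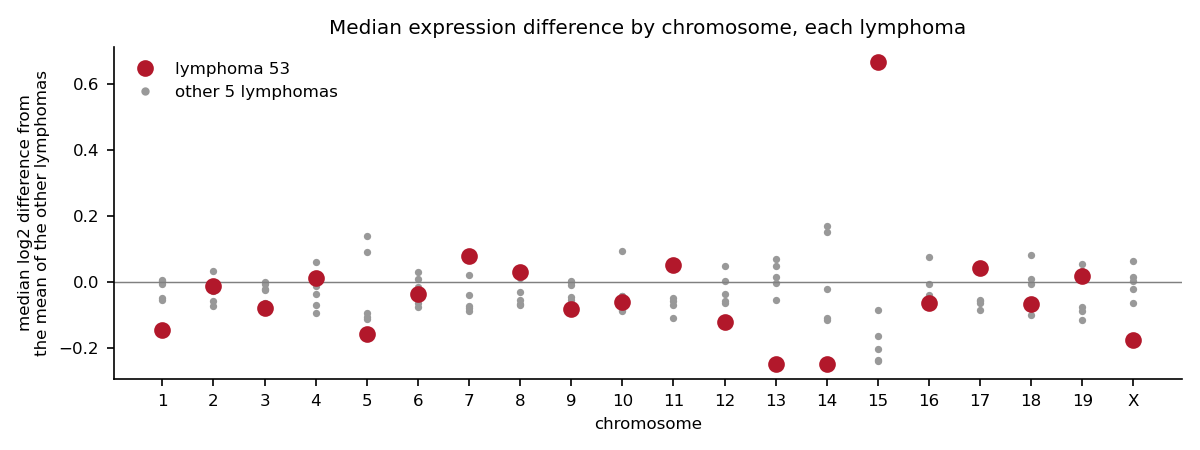
Median over genes of the log2 difference between each lymphoma and the mean of the other 5 (vertical axis) for each chromosome (horizontal axis), lymphoma 53 in red and the other lymphomas in grey. Chromosome 15 in lymphoma 53 stands at 0.67, while that library's other chromosomes lie between -0.25 and 0.08.

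DNA-PKcs is the kinase that Ku recruits, and Artemis is the nuclease that it activates. Prkdc (chr16:15637866-15842235, plus strand), which encodes DNA-PKcs, was at 48.3, 29.1, 43.1, 49.4, 43.3 and 53.4 CPM in the lymphomas, against 37.2, 43.4 and 30.6 in the CD4 libraries. The groups overlapped, and the change of 0.26 (log2, SE 0.21, adjusted p = 0.332) did not pass the test. Dclre1c (chr2:3424131-3464130, plus strand), which encodes Artemis, was at 14.8, 5.94, 15.9, 14.2, 12.4 and 12.1 CPM in the same lymphomas and at 32.4, 31.2 and 29.7 in CD4. All 6 lymphomas lay below the CD4 libraries, with lymphoma 53 lowest. Dclre1c fell by 1.31 on the log2 scale (SE 0.27, adjusted p = 0.00215), or 2.47-fold. Its longest stretches shared with other transcripts cover 486 of 7075 bases at 90% identity or more, with at least 305 other genes, and reads there may not be counted to it.

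At the ligase step Xrcc4 fell, while its partners Lig4 and Nhej1 did not pass the test. Xrcc4 (chr13:89774027-90089608, minus strand), the scaffold that stabilises DNA ligase IV, was at 12.5, 10.6, 11.4, 12.2, 12.2 and 10.5 CPM in the lymphomas and at 25.8, 25.8 and 19.0 in the CD4 libraries. No lymphoma reached a CD4 library, and the lymphomas varied little, at 11.6 ± 0.892 CPM (SD, n = 6). Xrcc4 fell by 1.02 on the log2 scale (SE 0.21, adjusted p = 0.00191), or 2.03-fold. Lig4 (chr8:9969049-9977686, minus strand), the ligase itself, was at 21.5, 16.6, 14.8, 23.3, 33.5 and 10.5 CPM in the lymphomas and 12.8, 11.5 and 6.05 in CD4. Of the 6 lymphomas, 5 exceeded all CD4 libraries and lymphoma 86 did not. The change of Lig4 was 0.99 (log2, SE 0.38, adjusted p = 0.0517), which just missed the threshold. It passed in 4 of 18 alternatives: with no filter on low counts (adjusted p = 0.0407), with DESeq2 (0.0390), without lymphoma 53 (0.0382) and without lymphoma 86 (0.0232). Nhej1 (chr1:74967139-75125200, minus strand), which encodes the ligase cofactor XLF, was at 5.09, 4.02, 3.93, 5.57, 3.08 and 3.18 CPM in the lymphomas and at 0.477, 1.92 and 3.12 in CD4. The groups met at CD4 3, which lay above lymphoma 72. The change of Nhej1 was 1.17 (log2, SE 0.57, adjusted p = 0.115), and without CD4 3 it was 1.81, with an adjusted p between 0.0519 and 0.266 over 17 alternatives.

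Within the lymphomas the pathway's genes differed in how evenly they were expressed. Xrcc4 had the smallest coefficient of variation among the 7 end joining genes, 7.70%, followed by Prkdc at 19.0%, and Xrcc6 the largest, 68.7%. Leaving out lymphoma 53, the highest library exceeded the lowest by 1.19-fold at Xrcc4, 1.24-fold at Prkdc, 1.31-fold at Dclre1c and 1.34-fold at Xrcc6. Of the 7 genes Lig4 then had the widest range, 3.20-fold from lymphoma 86 to lymphoma 72.

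Genes around the pathway were described from lists of known partners, in which 58 of the 59 genes in the table were tested. Of these, 29 rose and 8 fell, and with upper quartile scaling 13 fell. The share among all tested genes was 24.7% higher and 21.9% lower, with a median log2 change of 0.04. Proteins that mark breaks or process ends beside the core pathway (23 genes) included 11 that rose and 1 that fell, with a median log2 change of 0.61. H2afx, the histone variant phosphorylated around breaks, rose by 2.74 (SE 0.22, adjusted p = 2.57e-06), from 29.3 to 37.5 CPM in CD4 to 194 to 328 in lymphoma. The 1 that fell was Paxx, listed under an older symbol and known as a Ku-binding partner of XLF, at 7.86 to 18.5 CPM in lymphoma and 24.5 to 33.1 in CD4. Paxx fell, with a log2 change of -0.9997 (SE 0.27, adjusted p = 0.00912), and without CD4 3 the adjusted p was 0.0543. Hmgb1 and Hmgb2, DNA-bending cofactors of RAG cleavage, rose by 0.74 (SE 0.23, adjusted p = 0.0179) and 1.93 (SE 0.23, adjusted p = 3.98e-05). The adjusted p of Hmgb1 was 0.0614 without CD4 1, and that of Nbn was 0.0680 without CD4 2. Others among the 11 were Mre11a and Nbn of the break-sensing complex, whose other subunit Rad50 did not pass (log2 change 0.71, SE 0.32, adjusted p = 0.0941, and 0.88 with 0.000136 without lymphoma 53), and Tdp1 and Tdp2, which clear blocked ends.

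Alternative end joining, the route that uses short homologies when the classical one is not used, had 6 of 7 genes higher and 0 lower, with a median of 1.54. Among all tested genes 24.7% were higher and 21.9% lower. All 7 fitted changes of this list were above 0. Lig1, the replicative ligase that can also seal such joints, rose by 3.15 (SE 0.17, adjusted p = 2.05e-07), from 87.9 to 99.4 CPM in CD4 to 716 to 965 in lymphoma. Polq, the polymerase of this route, rose by 2.42 (SE 0.29, adjusted p = 4.25e-05). Parp2 was at 0.50 (SE 0.23, adjusted p = 0.0972) and did not pass, except without lymphoma 53 (adjusted p = 0.00918). All 15 proliferation genes also rose, summing to 2839 to 4082 CPM in lymphoma and 311 to 382 in CD4, and their part in the rise of Lig1 and the other repair genes, the Ku genes included, was not tested.

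Factors that control RAG expression moved in both directions. Of 16 tested genes 6 rose and 6 fell, beside 24.7% and 21.9% of all tested genes, with a median of -0.39. Gfi1, a zinc finger repressor, had the largest rise, 4.36 (log2, SE 0.80, adjusted p = 0.00155), from 10.3 to 24.1 CPM in CD4 to 48.2 to 662 in lymphoma. Foxo1, an activator of the RAG genes in lymphocytes, fell by 2.88 (SE 0.54, adjusted p = 0.00168), with 167 CPM in lymphoma 53 and 28.4 to 43.1 in the other lymphomas, and its change was -3.60 without lymphoma 53. Satb1, a chromatin organiser of thymocytes, fell by 5.54 (SE 0.20, adjusted p = 2.75e-08). Of the E protein genes, Tcf3 rose by 1.17 (SE 0.15, adjusted p = 8.70e-05), and Tcf12 was at -0.32 (SE 0.14, adjusted p = 0.0902), with all 6 lymphomas below the CD4 libraries and the threshold passed in 4 of 18 alternatives, RLE and upper quartile scaling among them. Runx1 was at -0.47 (SE 0.23, adjusted p = 0.113), and at -0.34 (adjusted p = 0.0423) without lymphoma 53. Bcl11a, a zinc finger factor needed early in lymphoid development, had the largest fall, with a log2 change of -5.89 (SE 0.87, adjusted p = 0.000560). It was at 20.8 CPM in lymphoma 34, at 1.57 to 3.47 in the other lymphomas and at 262 to 366 in CD4, and without lymphoma 34 its change was -7.14. B cell and plasmacytoid dendritic markers were lower in the same libraries, as given above, and their part in the fall of Bcl11a was not tested.

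RAG2 protein is destroyed as cells enter S phase, after phosphorylation by CDK2 with cyclin A and recognition by the SKP2 ubiquitin ligase. Of 8 genes listed for RAG2 turnover, 6 rose and 1 fell, beside 24.7% and 21.9% of all tested genes, with a median of 1.44. The remaining gene, Dcaf1, did not pass the test. It is counted in the list and its median but is not part of the steps just named. Ccna2, which encodes cyclin A, rose by 4.16 (SE 0.30, adjusted p = 9.78e-07), and Skp2 rose by 1.79 (SE 0.22, adjusted p = 5.04e-05). Cdkn1b, which encodes the CDK2 inhibitor p27, was the gene that fell, with a log2 change of -2.43 (SE 0.19, adjusted p = 1.62e-06), with 43.3 to 80.8 CPM in lymphoma and 303 to 404 in CD4. Ccna2 is also among the 15 proliferation genes, all of which rose, and their part in the change of this route was not tested. These are transcript levels, and RAG2 protein was not measured.

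Of the genes beside Rag1 and Rag2, Traf6, Commd9 and Prr5l were above the floor of 3 counts in all 9 libraries, and B230118H07Rik was not. Traf6, a signalling adaptor, was at 23.6 to 30.1 CPM in lymphoma and 23.3 to 33.1 in CD4. Commd9 was at 6.12 to 11.1 and 4.68 to 7.32 CPM, Prr5l at 1.08 to 27.0 and 11.6 to 17.3, and B230118H07Rik, the gene that encloses the RAG pair, at 0.0913 to 6.96 and 1.28 to 5.63. B230118H07Rik had 1 count in lymphoma 53 and 2 in lymphoma 72, and lymphoma 34 held 108 of its 162 lymphoma counts. Of these 4 genes 0 passed edgeR's test, with adjusted p from 0.582 to 0.858, and 0 passed with DESeq2 or limma or had an unadjusted p under 0.05 in edgeR. For Traf6, Prr5l and B230118H07Rik the direction of change turned when 1 library was left out.

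**Figure D5:**
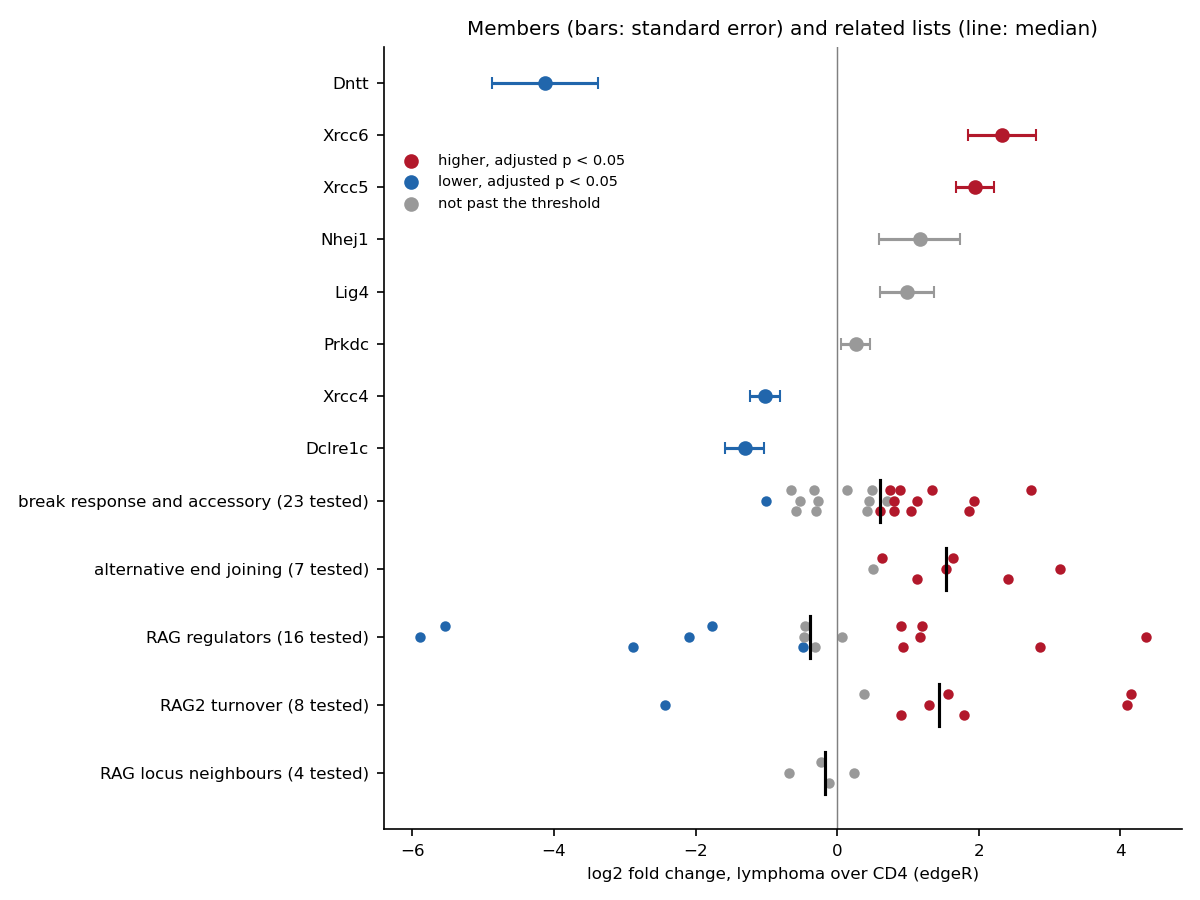
Log2 fold change of lymphoma over CD4 (horizontal axis) for the 8 tested genes of the pathway, with standard errors as bars, and for the tested genes of 5 related lists, with the list median as a black line. Red and blue mark genes higher and lower at an adjusted p under 0.05 and grey marks the others, and only Dntt, Xrcc4 and Dclre1c among the pathway's genes lie in blue.

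The receptor gene segments that recombination joins were summed per library as counts per 1000000 gene counts, without TMM scaling. Because transcript 3′ ends were sequenced, the sums may sample rearranged receptor transcripts poorly and are not read as levels of recombined segments. Some rest on few counts, with 0 to 15 for Trdv and 0 to 87 for Trbv in a lymphoma. T cell receptor alpha segments (Trav, 129 rows) were at 0.694 to 6.62 in lymphoma and 15.1 to 35.7 in CD4, and delta segments (Trdv, 6 rows) at 0 to 1.04 and 1.74 to 9.14. Immunoglobulin kappa segments (Igkv, 162 rows) were at 0 to 0.694 in lymphoma and 6.66 to 8.64 in CD4. Without CD4 2 the group difference of the delta segments was -2.09 in place of -4.35. None of these 3 sums overlapped between the groups (exact two-sided permutation p = 0.0238 for each, the smallest that 6 and 3 libraries allow, 0.0357 after Benjamini-Hochberg adjustment over 6 sums). Beta segments (Trbv, 34 rows) overlapped, at 0 to 5.80 in lymphoma and 4.94 to 10.9 in CD4 (exact permutation p = 0.0714, adjusted 0.0857), as did immunoglobulin heavy segments (Ighv, 185 rows; exact permutation p = 0.190). Alpha and beta counts were uneven among the lymphomas. In lymphomas 34, 70 and 72 they were 100, 92 and 92 for Trav and 84, 73 and 87 for Trbv. In lymphomas 53, 56 and 86 they were 18, 10 and 11 for Trav and 9, 0 and 0 for Trbv.

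A gamma chain segment went the other way. The 1 row named Trgv (Trgv2) was at 10.3 to 173 counts per 1000000 in lymphoma, 87.4 ± 56.7 (SD, n = 6), and 1.23 to 2.33 in CD4, 1.71 ± 0.558 (SD, n = 3). All 6 lymphomas exceeded all CD4 libraries (exact two-sided permutation p = 0.0238, adjusted 0.0357). With the rows named Tcrg-V added, a choice made after seeing the data, 7 rows summed to 13.6 to 456 in lymphoma and 4.44 to 8.72 in CD4 (exact permutation p = 0.0238). Lymphoma 53 was the lowest of the lymphomas in both sums. Reads on unrearranged and rearranged segments are counted alike, and with 2 CD4 libraries the smallest possible p would be 0.0714.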

How the data were processed

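The deposited table holds raw read counts per Ensembl gene and library, per the file headers, for 6 lymphoma and 3 CD4 libraries, with 46078 genes and 5 summary rows. FastQC, HISAT2, SAMtools and HTSeq and the builds mm10 and GRCm38 are named in the submitters' processing notes; versions, annotation and strand setting are not given in the sources used here. Summary rows took no part in library sizes or tests; reads in genes were 38.7% to 49.1% of all reads in lymphoma and 27.8% to 35.0% in CD4. The number of columns matching no sample was 0.

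Differences came from edgeR 4.0.16 under R 4.3.3 (filterByExpr with a minimum count of 10, TMM, glmQLFit robust, glmQLFTest, Benjamini-Hochberg adjustment over 15401 genes), with no covariate. Each standard error is the size of the log2 change over the root of its F statistic. The procedure was also run on simulated counts with a fixed dispersion, lower than that of these data, and far fewer changed genes. That run therefore does not measure its error rates here. Alternatives were other scalings, filters, DESeq2 1.42.0, limma 3.58.1 (voom), a threshold of 0.01, leaving out each library, and averaging lymphomas 34, 70 and 72. Segment sums were compared by exact permutation over 84 assignments (scipy 1.17.1). Loci and overlaps come from GENCODE release M21 on GRCm38 (45143 table IDs matched), and promoters from RefSeq.

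The genes, lists and tests were chosen with earlier results of these data known. Named beside the 10 genes are the largest rise and fall among passing genes of each related list and all RAG locus neighbours; other genes named from the lists (Hmgb1, Hmgb2, Mre11a, Nbn, Tdp1, Tdp2, Polq, Parp2, Rad50, Foxo1, Satb1, Tcf3, Tcf12, Runx1, Skp2 and marker genes) were chosen for their known role after their values were seen. The rule's search for genes patterned like Rag1, Rag2 and Dntt over the lymphomas was not made, because their mean counts there were 0.667, 0 and 7.33, under its minimum of 10.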

Additional observations from a re-analysis of the deposited data

Results flagged for a closer look

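Of 26 measures examined within the 6 lymphomas, 6 had a single library far from the other 5 by Dixon's test, which by chance marks about 1 group in 20. Xrcc6 was at 179 CPM in lymphoma 53 and 45.1 to 60.5 in the others. The ratio of Xrcc6 to Xrcc5 counts was 3.13 in lymphoma 53 and 0.420 to 0.715 in the others. Commd9 was at 11.1 CPM in lymphoma 53 and 6.12 to 7.78 in the others. Bcl11a was at 20.8 CPM in lymphoma 34 and 1.57 to 3.47 in the others. B230118H07Rik was at 6.96 CPM in lymphoma 34 and 0.0913 to 2.47 in the others. Igkv segments were at 0.694 counts per 1000000 gene counts in lymphoma 56 and 0 to 0.0668 in the others, which rests on 10 counts.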

How the results depend on the processing

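The calls of Xrcc4, Dclre1c, Xrcc5 and Xrcc6 kept their direction and their side of the threshold in each of 18 alternatives. Dntt did so in 17, but its difference was built into its entry to the test, so this is no support for its call. Dntt could not be fitted when at least 10 counts were asked of every library, the alternative that would have removed that entry. The count of the pathway's genes past the threshold ran from 4 to 6 against 5. Upper quartile scaling, which moved the median change of all tested genes from 0.04 to -0.06, gave 13 lower genes in the related lists against 8. Directions turned for 3 RAG locus neighbours when 1 library was left out: the log2 change of B230118H07Rik ran from -1.86 to 0.27 (above 0 without CD4 1), of Traf6 from -0.23 to 0.016 (without CD4 3) and of Prr5l from -0.65 to 0.051 (without lymphoma 56 or 86). Leaving out 1 library in turn, the segment differences in counts per 1000000 (lymphoma minus CD4) ran from -25.0 to -14.7 for Trav, -5.79 to -2.09 for Trdv, 68.5 to 101 for Trgv and -8.48 to -7.49 for Igkv, and with 2 CD4 libraries none can pass, since the smallest exact permutation p is then 0.0714. No paired analysis was possible because the groups share no replicate number. Depth limits Rag1 and Rag2, which lie under the floor of 3 counts. The prior count alternative for genes patterned like Rag1, Rag2 and Dntt was not run, as that search was not made.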
